A study of Arabidopsis thaliana with 30 samples.

Results

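The core circadian clock of Arabidopsis thaliana was described here through 10 genes, chosen by their locus codes from a table of 34212 loci. They are CCA1 (AT2G46830), LHY (AT1G01060), PRR9 (AT2G46790), PRR7 (AT5G02810), PRR5 (AT5G24470), TOC1 (AT5G61380), GI (AT1G22770), ELF3 (AT2G25930), ELF4 (AT2G40080) and LUX (AT3G46640, listed in RefSeq as PCL1 with LUX as a synonym). Their transcripts were measured by RNA-seq in whole rosettes of 3 genotypes kept for 6 h outdoors under 1 of 5 sunlight filters. The genotypes were uvr8-2, mutated in the UV-B photoreceptor UVR8, cry1cry2, mutated in the blue and UV-A photoreceptors CRY1 and CRY2, and the wild type Ler. The filters were long-pass sheets and films named blue0, UV0, UVA350, UVA and UVA+B. By these names each lets through more of the short end of sunlight than the one before, but the labels give no wavelengths.

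All plants shared the same history. They were 3 weeks old, had been raised in growth rooms with a 12 h photoperiod and no lamp UV-A, and went under the filters at sunrise, between 7:30 and 8:15. Harvest fell at solar noon, between 13:30 and 14:15 of the same day, and it proceeded block by block over 4 field blocks. Each library joined RNA of 2 blocks, with 5 rosettes pooled per block and group, and each of the 15 groups of genotype and filter had 2 libraries, numbered 1 and 2. The labels do not say which blocks stand behind each number. Library number, block and time of cutting therefore cannot be told apart. The p-values measure the spread between such pooled libraries of 1 outdoor day.

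The clock is a loop of repressors that follow each other through the day. The related MYB proteins CCA1 and LHY are made around dawn and shut off the genes of the evening. The pseudo-response regulators PRR9, PRR7, PRR5 and TOC1 then appear one after another from morning to dusk, and repress CCA1 and LHY in turn. GI, a large protein that stabilises the blue-light F-box protein ZTL, is highest late in the day. ELF3, ELF4 and LUX form the evening complex, which represses PRR9 and growth genes during the night. Light resets the loop through phytochromes, cryptochromes and, for UV-B, UVR8. In whole rosettes, fewer cells of a type and less RNA per cell cannot be told apart.

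The libraries held between 12109222 and 22865826 estimated counts. All 10 clock genes passed the filter on low counts, which left 19980 genes. Rosette markers were abundant, with the Rubisco small subunit gene RBCS1A between 8448 and 17620 CPM, the counts scaled to 1000000 per library. The root markers CASP1, PRP3 and COBL9 had at most 5 counts in any library, and the floral gene AG stayed at or under 3.15 CPM. Chloroplast-encoded genes took between 0.123% and 1.59% of the counts, and over 1% in 3 libraries, which were uvr8-2 blue0 replicate 2, cry1cry2 UVA replicate 2 and cry1cry2 UVA+B replicate 2. CPM values are not corrected for gene length, so levels are compared within a gene only.

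Most clock genes differed between the 2 library numbers. CCA1 and LHY, the repressors of the dawn, and PRR9, the earliest of the pseudo-response regulators, were lower in replicate 2 than in replicate 1 in 15 of 15 groups. PRR5, TOC1, ELF3, ELF4 and LUX, which are known to peak between afternoon and night, were higher in replicate 2 in 15 of 15 groups. With library number as a term beside the groups, 9 of the 10 genes were called at an adjusted p under 0.05, 6 of them higher in replicate 2 and 3 lower. The p-values of this term measure how even the difference was over the 15 groups. They do not measure a spread between blocks or times of cutting. Over all genes tested, 24% were called, 12.1% higher and 11.8% lower. The same direction in all 15 groups was seen for 8 clock genes and for 3.43% of all genes, with 1.84% higher and 1.59% lower throughout.

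Among the dawn genes, CCA1 ran from 4.95 to 20.4 CPM in replicate 2, with a median of 8.56, and from 10.7 to 42.3 CPM in replicate 1, with a median of 19.3. The fitted log2 difference was -1.23 ± 0.083 (SE, 15 pairs of libraries, adjusted p = 2.04e-09 by edgeR's quasi-likelihood test). LHY had a median of 1.79 CPM in replicate 2, range 0.509 to 3.97, and of 3.03 CPM in replicate 1, range 1.39 to 8.00. Its log2 difference was -1.12 ± 0.10 (adjusted p = 1.89e-08). The ranges of both genes overlap between the numbers, while within every group replicate 2 was the lower library.

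PRR9 had a median of 20.0 CPM in replicate 2 and of 46.9 CPM in replicate 1. The highest replicate 2 library, at 35.4 CPM, lay below the lowest replicate 1 library, at 35.8 CPM, so that the 15 libraries of 1 number did not overlap the 15 of the other. LUX, the DNA-binding subunit of the evening complex, was separated in the other direction, with 34.3 to 57.9 CPM in replicate 2 and 14.9 to 28.5 CPM in replicate 1. Such a full separation was found for 0.0651% of all genes, which is 13 genes. The log2 differences were -1.25 ± 0.057 for PRR9 (adjusted p = 4.04e-13) and 1.09 ± 0.036 for LUX (adjusted p = 1.58e-16).

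ELF4, a small protein of the evening complex, had the largest difference of the 10. Its median was 25.0 CPM in replicate 2 and 10.7 CPM in replicate 1, and the log2 difference of 1.66 ± 0.10 (adjusted p = 5.49e-09) ranked 10 by size among all genes tested. TOC1, the pseudo-response regulator of dusk, differed by 0.82 ± 0.044 (adjusted p = 1.28e-12) and PRR5 by 0.72 ± 0.075 (adjusted p = 1.53e-06). The scaffold of the evening complex, ELF3, differed by 0.38 ± 0.045 (adjusted p = 9.28e-07). GI differed by 0.18 ± 0.046 (adjusted p = 0.00461) and was higher in replicate 2 in 12 of 15 groups. The exception was PRR7, a regulator known to peak near midday, with a log2 difference of -0.03 ± 0.032 (adjusted p = 0.487) and replicate 2 higher in 6 groups and lower in 9. Its medians were 271 CPM in replicate 2 and 279 CPM in replicate 1.

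**Figure D1:**
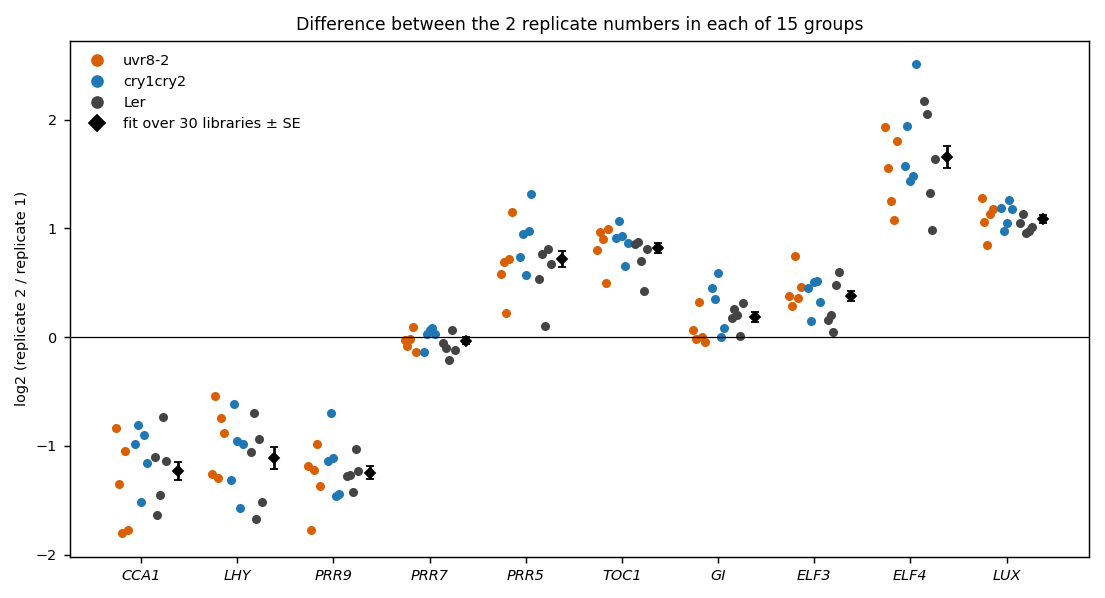
Log2 difference in CPM between the replicate 2 and the replicate 1 library of each group, for each clock gene. The vertical scale is log2, each point is 1 of the 15 groups, colours mark the genotypes, and the black diamonds give the fit over the 30 libraries with its SE. All 15 points lie below 0 for CCA1, LHY and PRR9, and all 15 lie above 0 for PRR5, TOC1, ELF3, ELF4 and LUX.

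Genes that work beside the core loop were split between the numbers too. Of 37 tested genes on a list of clock-associated genes, 12 were higher in replicate 2, 15 were lower, and 10 were not called. The 3 with the smallest p before adjustment were JMJD5, a JmjC-domain protein that acts in the clock, PRR3, a pseudo-response regulator that binds TOC1, and GRP7, an RNA-binding protein under clock control. GRP8 shared the adjusted p of PRR3 and GRP7 (4.04e-13 by edgeR's quasi-likelihood test). JMJD5 had a median of 11.4 CPM in replicate 2 and 4.00 CPM in replicate 1, a log2 difference of 1.71 ± 0.079. PRR3 had medians of 94.0 and 52.1 CPM in replicates 2 and 1, and GRP7 of 2869 and 1431 CPM. The median size of the log2 difference, sign left aside, was 0.955 for the 10 clock genes and 0.0922 for all genes. Cell type markers were summed as well. The mesophyll markers had a median of 17890 CPM in replicate 2 and 16890 CPM in replicate 1, the phloem markers had 166 and 143 CPM, and the guard cell markers had 72.6 and 80.0 CPM. Their part in the result was not tested.

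Short DNA motifs known from the clock were looked up in the 500 bases before each gene start, since groups of these genes moved together. The reference was RefSeq's TAIR10.1 assembly of the Columbia accession, while the plants here are Ler and mutants. The evening element, bound by CCA1 and LHY, was searched in a short form, AAATATCT, on both strands. A longer form was not searched. The short form stood in the windows of 4 of the 10 clock genes, and in 8.86% of 27443 windows of the genome. These 4 were PRR5, TOC1, ELF4 and LUX, the genes with the 4 largest positive differences between replicate 2 and replicate 1. That overlap was seen after the differences were known and was not tested. The sites are printed on the strand of the gene, with the motif or its reverse complement AGATATTT in capitals.
TOC1, 151 bases upstream, chr5:24674800-24674831, plus strand: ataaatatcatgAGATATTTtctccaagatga
PRR5, 292 bases upstream, chr5:8358819-8358850, minus strand: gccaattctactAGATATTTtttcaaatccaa
PRR5, 187 bases upstream, chr5:8358714-8358745, minus strand: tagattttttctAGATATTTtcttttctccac
ELF4, 250 bases upstream, chr2:16735184-16735215, minus strand: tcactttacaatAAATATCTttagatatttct
LUX, 408 bases upstream, chr3:17182622-17182653, plus strand: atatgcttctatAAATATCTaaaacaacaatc
LUX, 70 bases upstream, chr3:17182960-17182991, plus strand: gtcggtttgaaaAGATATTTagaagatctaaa

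ELF4 and LUX each held 1 more site of this short form, and that of ELF4 is the reverse complement within the window shown. The G-box CACGTG, a palindrome bound by light-signalling factors such as HY5 and the PIFs, stood in the windows of 5 clock genes and in 9.35% of all windows. They were CCA1, LHY, PRR9, which had 2, PRR7 and LUX. For each of the 3 genes that were lower in replicate 2, the G-box nearest to the gene start is shown in capitals, and the other one of PRR9, 244 bases upstream, is left out.
CCA1, 193 bases upstream, chr2:19245386-19245415, plus strand: tagtgtatcagaCACGTGtcgacaaactgg
LHY, 80 bases upstream, chr1:37934-37963, minus strand: ctacaatatcacCACGTGtcgatctgcgat
PRR9, 172 bases upstream, chr2:19232423-19232452, plus strand: ttaggttaatgaCACGTGttaaggtggacc
The CCA1-binding site AAAAATCT was found before LHY, PRR9 and PRR5 and in 12.5% of all windows. The LUX-binding site GATACG was found before ELF3 and ELF4 and in 8.76%. GI held none of the 4 motifs in this window. A match of letters says nothing of binding, and no test was made over so few promoters.

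**Figure D2:**
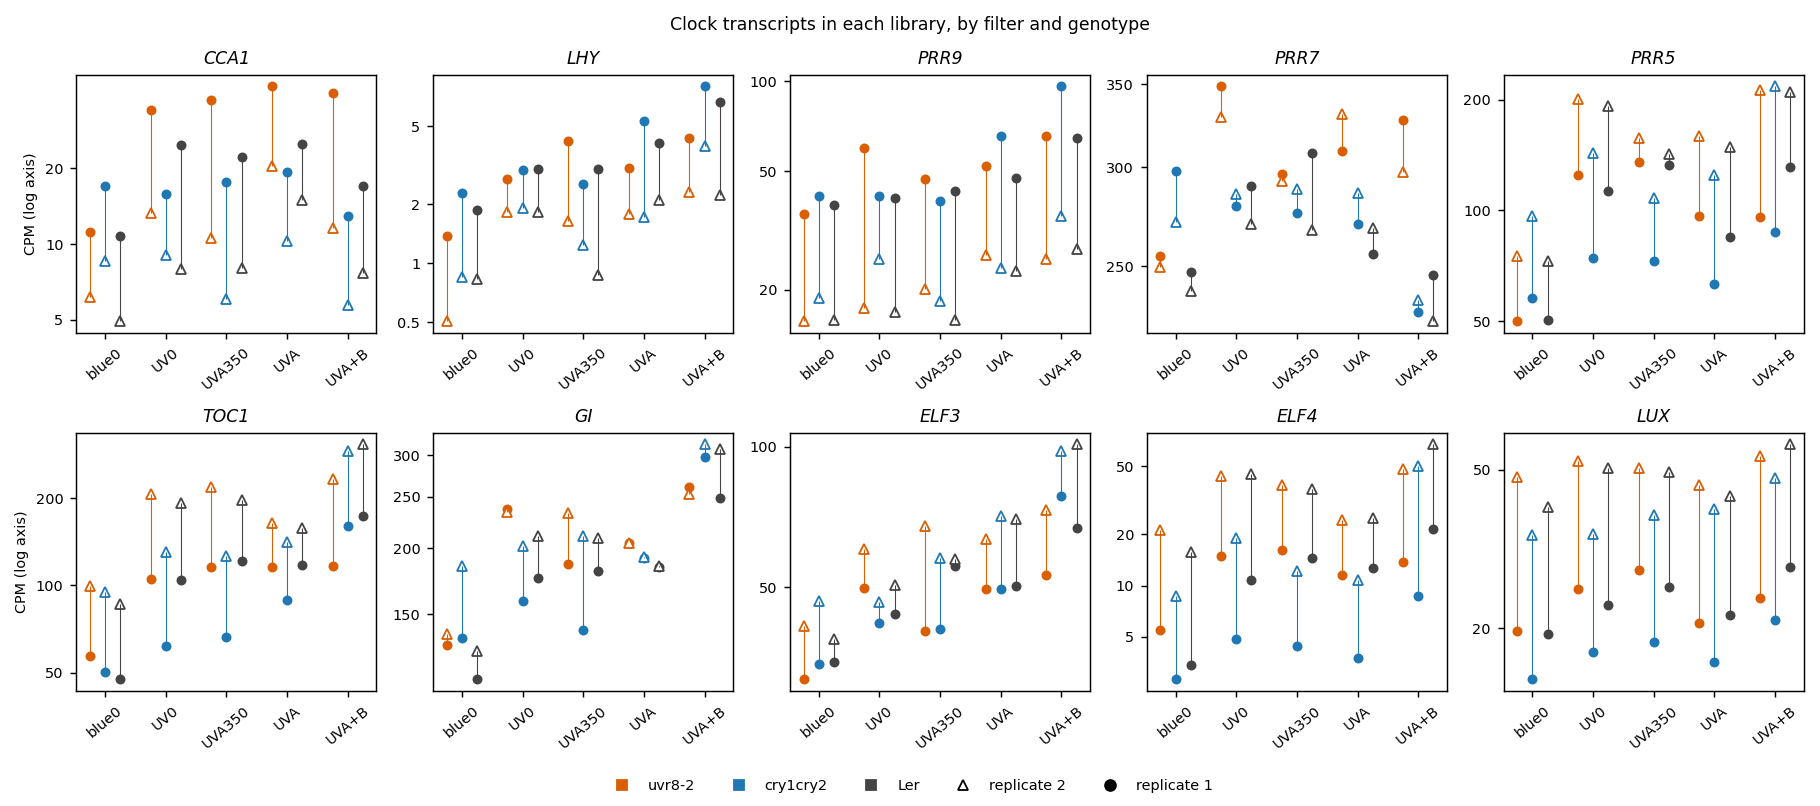
Level of each clock gene in the 30 libraries, as CPM on a log axis, with the 5 filters in order of increasing light along the horizontal axis and the genotypes in separate colours. Open triangles are replicate 2 and filled circles replicate 1, joined by a line within a group. PRR9 and LUX split by number without overlap, whereas PRR7 stays between 226 and 349 CPM throughout.

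Whether the full range of blue and UV light moved the clock genes was asked by setting UVA+B against blue0. Unless one is named, the fits from here on carry no term for library number. Calls with that term are counted in the last section, and some are named beside the comparisons they belong to. Over the mean of the 3 genotypes, LHY, PRR5, TOC1, GI, ELF3 and ELF4 rose under UVA+B, and no clock gene fell. These 6 of 10 stand beside 59.2% of all genes called in that comparison, 28.4% higher and 30.8% lower. The median log2 difference was 1.03 over the 10 clock genes and -0.03 over all genes, and 9 of the 10 had a difference above 0. CCA1, PRR9, PRR7 and LUX were not called, with log2 differences of 0.58 ± 0.51, 0.91 ± 0.50, -0.01 ± 0.054 and 0.41 ± 0.43. With library number as a term, edgeR's quasi-likelihood test also called CCA1 higher (0.54, adjusted p = 0.00163). PRR9 (0.88, adjusted p = 8.82e-09) and LUX (0.41, adjusted p = 5.91e-07) were then called higher as well, and PRR7 was not called (adjusted p = 0.886).

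GI rose in each of the 3 genotypes. In uvr8-2 it was at 253 and 261 CPM under UVA+B and at 137 and 131 CPM under blue0, in replicates 2 and 1. In cry1cry2 the values were 314 and 297 CPM under UVA+B, against 185 and 136 CPM under blue0, and in Ler they were 308 and 249 CPM against 128 and 113 CPM. In each genotype both UVA+B libraries lay above both blue0 libraries. The log2 differences were 0.94 ± 0.17 in uvr8-2 (adjusted p = 0.000387), 0.93 ± 0.17 in cry1cry2 (adjusted p = 0.000157) and 1.21 ± 0.17 in Ler (adjusted p = 9.32e-06), all by edgeR's quasi-likelihood test. Called genes made up 24% of all genes over this range in uvr8-2, 43.1% in cry1cry2 and 43.5% in Ler, and those called higher made up 12.9%, 20.4% and 21.5%.

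ELF3 rose over the same range in each genotype as well. Under UVA+B it had 73.1 and 53.0 CPM in uvr8-2, 98.0 and 78.2 CPM in cry1cry2, and 101 and 66.8 CPM in Ler, in replicates 2 and 1. Under blue0 the values were 41.2 and 31.7, 46.7 and 34.2, and 38.7 and 34.6 CPM in the same order of genotypes. ELF3 changed by 0.79 ± 0.28 in uvr8-2 (adjusted p = 0.0446), 1.12 ± 0.28 in cry1cry2 (adjusted p = 0.00289) and 1.20 ± 0.28 in Ler (adjusted p = 0.00186). The call in uvr8-2 sat near the threshold and was lost without 6 single libraries. These were uvr8-2 UVA+B replicate 2 (0.54, adjusted p = 0.313), uvr8-2 blue0 replicates 1 (0.62, adjusted p = 0.243) and 2 (1.00, adjusted p = 0.0596), Ler UVA350 replicates 1 and 2 (both 0.80, adjusted p = 0.0507 and 0.0508) and Ler UV0 replicate 2 (0.79, adjusted p = 0.0525).

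TOC1 was called over the full range in cry1cry2 and in Ler. Its UVA+B libraries of replicates 2 and 1 had 291 and 160.0 CPM in cry1cry2 and 306 and 174 CPM in Ler, against 94.8 and 50.2 CPM and 86.2 and 47.7 CPM under blue0. These gave log2 differences of 1.63 ± 0.58 in cry1cry2 (adjusted p = 0.033) and 1.84 ± 0.59 in Ler (adjusted p = 0.0184). In uvr8-2 it had 232 and 116 CPM under UVA+B and 99.7 and 57.2 CPM under blue0, with 1.15 ± 0.58 (adjusted p = 0.167). There TOC1 was called with library number as a term, at 1.13 (adjusted p = 1.02e-07 by edgeR's quasi-likelihood test). The cry1cry2 call was lost without blue0 replicate 1 (1.26, adjusted p = 0.216) or UVA+B replicate 2 (1.16, adjusted p = 0.206), and the Ler call without blue0 replicate 1 (1.48, adjusted p = 0.146) or UVA+B replicate 2 (1.38, adjusted p = 0.147). Within single library numbers, the TOC1 difference was 1.62 in replicate 2 and 1.67 in replicate 1 for cry1cry2, and 1.83 and 1.87 for Ler.

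Without a term for library number, PRR5 was called in Ler only among the 3 genotypes, which does not show that the genotypes differ. With that term, edgeR's quasi-likelihood test called PRR5 in uvr8-2 (1.23, adjusted p = 0.000157), cry1cry2 (0.92, adjusted p = 0.00112) and Ler (1.45, adjusted p = 1.32e-05). It called LHY in each genotype too, at an adjusted p of at most 3.27e-05. Without the term, the Ler values of PRR5 under UVA+B were 209 CPM in replicate 2 and 132 CPM in replicate 1. Under blue0 they were 72.9 and 50.3 CPM, with a log2 difference of 1.47 ± 0.54 (adjusted p = 0.0382). The differences in uvr8-2 and cry1cry2 were 1.30 ± 0.54 (adjusted p = 0.0942) and 0.98 ± 0.54 (adjusted p = 0.157). The Ler call was lost without Ler blue0 replicate 1 (1.23, adjusted p = 0.2), blue0 replicate 2 (1.77, adjusted p = 0.0706) or UVA+B replicate 2 (1.09, adjusted p = 0.225). LHY was called in cry1cry2, where it had 3.97 and 8.00 CPM under UVA+B and 0.847 and 2.29 CPM under blue0 in replicates 2 and 1. The log2 difference was 1.98 ± 0.73 (adjusted p = 0.0364). It was lost without UVA+B replicate 1 (1.39, adjusted p = 0.247) or blue0 replicate 2 (1.41, adjusted p = 0.234).

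ELF4 had the largest log2 differences over the full range in cry1cry2 and Ler, and the widest errors in all 3 genotypes. In Ler it was at 67.3 and 21.5 CPM under UVA+B and at 15.8 and 3.40 CPM under blue0 in replicates 2 and 1, a difference of 2.23 ± 1.15 (adjusted p = 0.133). In cry1cry2 the libraries had 50.2 and 8.70 CPM under UVA+B and 8.65 and 2.83 CPM under blue0, a difference of 2.31 ± 1.19 (adjusted p = 0.132). In both genotypes the 2 UVA+B libraries lay above the 2 blue0 libraries, narrowly so in cry1cry2. Within the library numbers, the difference was 2.09 in replicate 2 and 2.62 in replicate 1 for Ler, and 2.52 and 1.58 for cry1cry2. ELF4 was called over the mean of the 3 genotypes, at 1.93 ± 0.67 (adjusted p = 0.02). That call was lost without any 1 of 6 libraries, the UVA+B replicate 2 library or the blue0 replicate 1 library of uvr8-2, cry1cry2 or Ler, with values between 1.36 and 1.76 and adjusted p between 0.056 and 0.109.

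**Figure D3:**
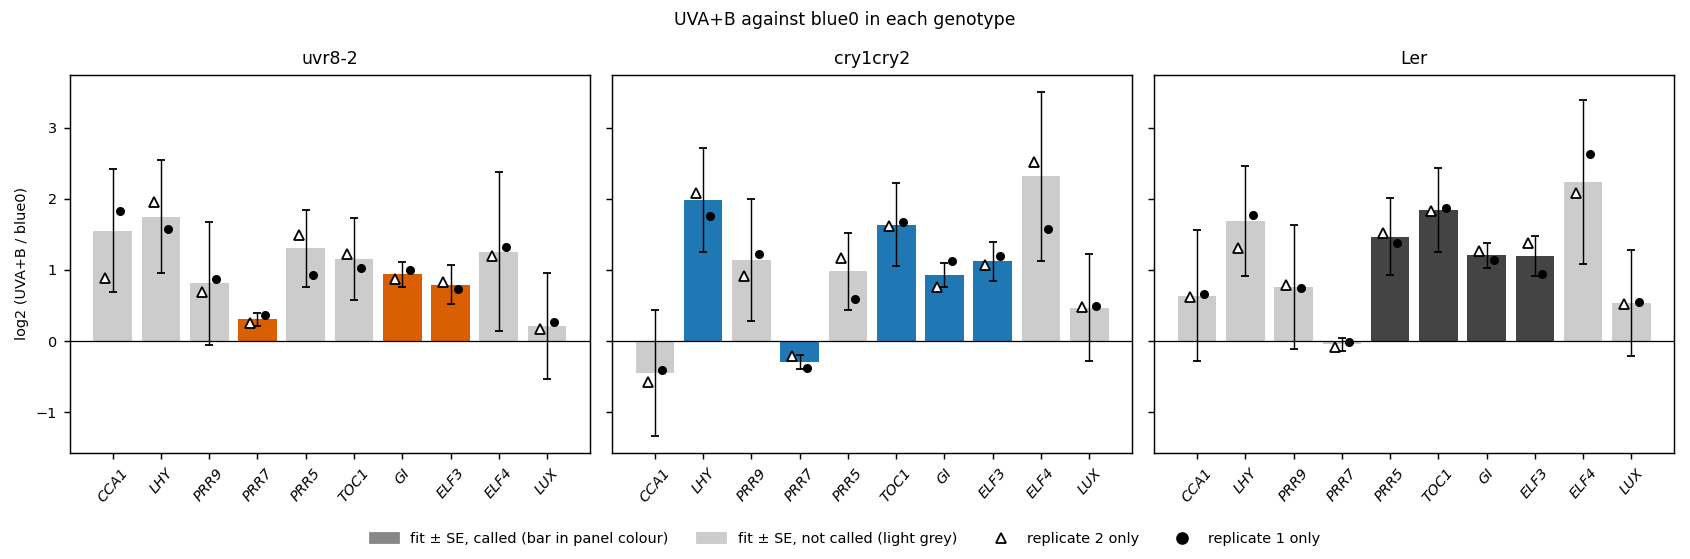
Log2 difference of UVA+B minus blue0 for each clock gene in uvr8-2, cry1cry2 and Ler. Bars give the fitted value with its SE, in the panel's colour where called and in light grey where not, and open triangles and filled circles give replicate 2 and replicate 1 alone. GI lies at 0.94, 0.93 and 1.21 with short error bars, and PRR7 lies at 0.31, -0.29 and -0.04.

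PRR7 took opposite directions in the 2 mutants. In uvr8-2 it had 297 and 328 CPM under UVA+B, in replicates 2 and 1, and 249.6 and 255 CPM under blue0, so that both UVA+B libraries were higher. In cry1cry2 it had 235 and 229.5 CPM under UVA+B, and 271 and 298 CPM under blue0, so that both were lower, as were 22.8% of all genes by the test. In Ler it had 226 and 246 CPM under UVA+B and 239 and 247 CPM under blue0, and the groups overlapped. The log2 differences were 0.31 ± 0.093 in uvr8-2 (adjusted p = 0.0183), -0.29 ± 0.093 in cry1cry2 (adjusted p = 0.0137) and -0.04 ± 0.093 in Ler (adjusted p = 0.741). The uvr8-2 call was lost without UVA+B replicate 1 (0.25, adjusted p = 0.11), blue0 replicate 1 (0.33, adjusted p = 0.0552) or blue0 replicate 2 (0.31, adjusted p = 0.075). The cry1cry2 call was lost without UVA+B replicate 1 (-0.28, adjusted p = 0.0822), UVA+B replicate 2 (-0.29, adjusted p = 0.0683) or blue0 replicate 1 (-0.21, adjusted p = 0.174). The difference between the mutants was itself tested after these values were seen. It was 0.60 ± 0.13 for uvr8-2 minus cry1cry2 (adjusted p = 0.0103), with 0.46 in replicate 2 and 0.74 in replicate 1, and 4.16% of all genes were called, 2.82% higher. That call was lost without uvr8-2 UVA+B replicate 1 (0.52, adjusted p = 0.0657), cry1cry2 UVA+B replicate 1 (0.59, adjusted p = 0.0568) or cry1cry2 blue0 replicate 1 (0.53, adjusted p = 0.0703).

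The filters split the range into 4 steps, of which 2 carried the calls in these fits without a term for library number. The blue step sets UV0 against blue0, 2 filters that by their names both remove UV. Over the mean of the 3 genotypes PRR7, PRR5 and GI rose in it, 3 of 10 beside 29% of all genes, 14.8% higher, and all 10 clock genes had a difference above 0. With library number as a term, edgeR's quasi-likelihood test called all 10 higher, with the largest adjusted p, 0.0215, for PRR9. Without it, the log2 differences were 0.21 ± 0.054 for PRR7 (adjusted p = 0.00572), 1.06 ± 0.31 for PRR5 (adjusted p = 0.017) and 0.55 ± 0.099 for GI (adjusted p = 0.000219). The PRR5 call was lost without 5 single libraries, Ler or cry1cry2 blue0 replicate 1 and the UV0 replicate 2 library of uvr8-2, cry1cry2 or Ler, with values between 0.88 and 0.99 and adjusted p between 0.0508 and 0.0618.

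By genotype, in fits without a term for library number, the blue step gave PRR7 and GI in uvr8-2, beside 15.2% of all genes called, 8.38% higher. PRR7 had 329 and 349 CPM under UV0 and 249.6 and 255 CPM under blue0, in replicates 2 and 1, a log2 difference of 0.43 ± 0.093 (adjusted p = 0.00316). GI had 234 and 237 CPM under UV0 and 137 and 131 CPM under blue0, a difference of 0.81 ± 0.17 (adjusted p = 0.0025). In Ler, GI was the gene called, beside 18.1% of all genes, 9.7% higher, with 211 and 176 CPM under UV0, against 128 and 113 CPM under blue0, and a difference of 0.68 ± 0.17 (adjusted p = 0.00817). The Ler call was lost without blue0 replicate 1 (0.60, adjusted p = 0.0967) or UV0 replicate 2 (0.54, adjusted p = 0.112).

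In cry1cry2, mutated in both cryptochromes, the blue step gave no call among the clock genes, at an unadjusted p under 0.05 for 0 of 10 and by DESeq2 for 0 of 10, and 0.175% of all genes were called. GI had 202 and 159 CPM under UV0 and 185 and 136 CPM under blue0, and the groups overlapped. TOC1 had 131 and 62.0 CPM under UV0 and 94.8 and 50.2 CPM under blue0, with 0.41 ± 0.58. The median log2 difference of the 10 genes in this step was 0.167 in cry1cry2, 0.902 in uvr8-2 and 0.741 in Ler. With library number as a term, edgeR's quasi-likelihood test called none of the 10 in this step of cry1cry2. In uvr8-2 it called all but LUX higher, with TOC1 at 0.97 (adjusted p = 2.15e-06). In Ler it called all but PRR9 and PRR7 higher, with TOC1 at 1.15 (adjusted p = 2.18e-07). The difference between mutant and Ler was itself tested, gene by gene, for the 4 steps and the full range. In fits that carry no term for library number, none of the 10 clock genes was called in any of these 10 comparisons by edgeR's quasi-likelihood test or by DESeq2, and 2 of the 100 had an unadjusted p under 0.05. Called genes made up 0.546% of all genes for the blue step in cry1cry2 minus Ler, 1.15% for the full range in uvr8-2 minus Ler, 0.015% for the short UV-A step and 0.01% for the full range in cry1cry2 minus Ler, 0.00501% for the UV-B step in uvr8-2 minus Ler, and 0% in the other 5. With library number as a term, edgeR's quasi-likelihood test called TOC1 for the blue step in cry1cry2 minus Ler (-0.76, adjusted p = 0.015). It also called TOC1 for the full range in uvr8-2 minus Ler (-0.72, adjusted p = 0.0169). For the blue step in cry1cry2 minus Ler, 8 of the 10 genes were lower within both numbers, beside 30.8% of all genes.

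The UV-B step sets UVA+B against UVA. GI rose in it over the mean of the genotypes, by 0.53 ± 0.098 (adjusted p = 0.00073), as 1 of the 10 beside 14.9% of all genes, 7.64% higher. For that mean, edgeR's quasi-likelihood test with library number as a term called all 10. CCA1 (-0.61, adjusted p = 0.0017) and PRR7 (-0.15, adjusted p = 0.0364) were lower and the others higher. In cry1cry2 GI had 314 and 297 CPM under UVA+B and 193 and 192 CPM under UVA, in replicates 2 and 1, with a log2 difference of 0.67 ± 0.17 (adjusted p = 0.0115). In this fit without a term for library number, GI was the only clock gene called, beside 14% of all genes, 6.72% higher. That call was lost without UVA+B replicate 2 (0.63, adjusted p = 0.0759), UVA replicate 1 (0.67, adjusted p = 0.0715) or UVA replicate 2 (0.67, adjusted p = 0.0733). With library number as a term, other clock genes were called in this step of cry1cry2 too. By edgeR's quasi-likelihood test they included TOC1 (0.94, adjusted p = 3.76e-06), ELF4 (1.85, adjusted p = 0.000211) and, lower, CCA1 (-0.71, adjusted p = 0.0346). Within both numbers 8 of the 10 were higher and 2 lower, beside 35% and 37.5% of all genes. In Ler GI had 308 and 249 CPM against 185 and 184 CPM, which did not overlap, but the difference of 0.59 ± 0.17 was not called (adjusted p = 0.0654), while 3.04% of all genes were. Adding library number as a term, edgeR's quasi-likelihood test called GI (0.58, adjusted p = 0.00499) and TOC1 (0.75, adjusted p = 0.00023) higher in Ler. ELF3 (adjusted p = 0.0176), ELF4 (adjusted p = 0.016) and LUX (adjusted p = 0.00994) were then called higher in Ler too. In uvr8-2, GI had 253 and 261 CPM under UVA+B and 205 and 205 CPM under UVA, with 0.33 ± 0.17 (adjusted p = 0.843), and no gene of the whole table was called by edgeR in that step, although 1204 had an unadjusted p under 0.05. None of the 10 clock genes was called there by DESeq2, or by edgeR with library number as a term.

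Neither UV-A step gave a call among the clock genes, in a genotype or over the mean of the 3, in fits that carry no term for library number. For the mean of the genotypes, 4.06% of all genes were called between UVA and UVA350 (the short UV-A step) and 1.24% between UVA350 and UV0 (the long one), and no clock gene had an unadjusted p under 0.05 in either. In single genotypes, called genes made up 0% of the table in uvr8-2, 3.54% in cry1cry2 and 0.2% in Ler for the short step, and 0.0501%, 0% and 0% for the long one. DESeq2 called no clock gene either, and 1 clock gene had an unadjusted p under 0.05, in the long UV-A step of uvr8-2. With library number as a term, edgeR's quasi-likelihood test called PRR9 in the short step of cry1cry2 (0.56, adjusted p = 0.0239). Over the mean of the genotypes, the short step then gave CCA1 (0.46, adjusted p = 0.0243) and PRR9 (0.38, adjusted p = 0.00811), higher, and LUX (-0.18, adjusted p = 0.0425), lower. GI in Ler had 211, 209 and 185 CPM under UV0, UVA350 and UVA in replicate 2 and 176, 182 and 184 CPM in replicate 1.

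**Figure D4:**
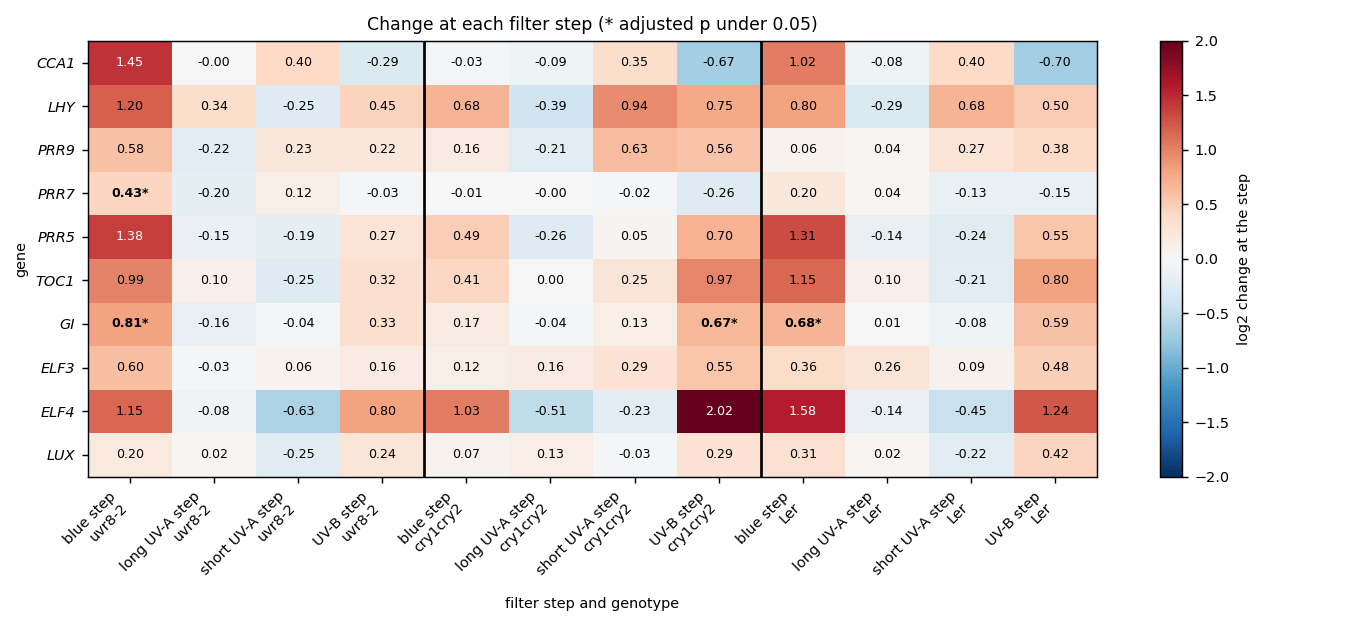
Fitted log2 difference at each filter step, with genes in rows and, in columns, the 4 steps in order of increasing light for uvr8-2, cry1cry2 and Ler. Colour runs from blue for lower to red for higher, and an asterisk marks an adjusted p under 0.05. GI is at 0.81 and 0.68 in the blue step of uvr8-2 and Ler and at 0.17 in cry1cry2, and at 0.33, 0.67 and 0.59 in the UV-B step of uvr8-2, cry1cry2 and Ler.

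The total effect of UV was read from UVA+B against UV0. GI and ELF3 rose in cry1cry2 and in Ler, and PRR7 fell in cry1cry2, where 34.1% of all genes were called, 16.3% higher and 17.8% lower. In Ler 17.8% were called, 9.47% higher, and in uvr8-2 0.771%. In cry1cry2 ELF3 had 98.0 and 78.2 CPM under UVA+B and 46.4 and 41.9 CPM under UV0, in replicates 2 and 1, a log2 difference of 1.00 ± 0.28 (adjusted p = 0.00874). GI changed by 0.76 ± 0.17 (adjusted p = 0.00159). PRR7 was at 235 and 229.5 CPM under UVA+B and at 285 and 279 CPM under UV0, a difference of -0.28 ± 0.093 (adjusted p = 0.022). In Ler, GI changed by 0.53 ± 0.17 (adjusted p = 0.0357) and ELF3 by 0.83 ± 0.28 (adjusted p = 0.0436). None of the 10 was called in uvr8-2 by edgeR or DESeq2, and 0 had an unadjusted p under 0.05. GI there was at 253 and 261 CPM under UVA+B and at 234 and 237 CPM under UV0, a difference of 0.13 with a 95% interval from -0.24 to 0.49. Adding library number as a term, edgeR's quasi-likelihood test also called LHY, PRR9, TOC1 and ELF4 higher in cry1cry2 and in Ler. TOC1 was at 1.25 (adjusted p = 1.24e-08) and 0.70 (adjusted p = 0.000101). LUX was then called higher in cry1cry2 (0.38, adjusted p = 0.00347) and PRR7 lower in Ler (-0.25, adjusted p = 0.0419). No clock gene was called in uvr8-2 with that term.

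Several total UV calls were lost when a single library was left out, though each kept its direction. PRR7 in cry1cry2 was lost without any 1 of the 4 libraries compared, with values between -0.30 and -0.25 and adjusted p between 0.0724 and 0.12. ELF3 in cry1cry2 was lost without UV0 replicate 1 (0.93, adjusted p = 0.0708) or UVA+B replicate 2 (0.84, adjusted p = 0.0712). In Ler, GI was lost without UV0 replicate 1 (0.40, adjusted p = 0.278), UV0 replicate 2 (0.66, adjusted p = 0.0541) or UVA+B replicate 2 (0.36, adjusted p = 0.345). ELF3 in Ler was lost without 11 libraries, with the lowest value, 0.50 (adjusted p = 0.425), without Ler UVA+B replicate 2. The other 10 were Ler UV0 replicates 1 (0.73, adjusted p = 0.224) and 2 (0.94, adjusted p = 0.11) and, at adjusted p between 0.0506 and 0.0548, both libraries of Ler blue0, Ler UVA350, uvr8-2 UV0 and cry1cry2 UV0.

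Without the 3 libraries that held over 1% chloroplast counts, 33 of the 43 single calls remained. Over the full range, those lost were PRR7 (adjusted p = 0.112) and ELF3 (adjusted p = 0.0627) in uvr8-2, PRR7 (adjusted p = 0.0569) and TOC1 (adjusted p = 0.226) in cry1cry2, PRR7 between the mutants (adjusted p = 0.0748) and ELF4 over the mean of the genotypes (adjusted p = 0.0674). GI in the UV-B step of cry1cry2 (adjusted p = 0.2), PRR7 (adjusted p = 0.082) and ELF3 (adjusted p = 0.0706) for total UV in cry1cry2, and GI for total UV in Ler (adjusted p = 0.0581) were lost too. Each kept its direction.

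A test of any difference among the 5 filters called GI in each genotype, with adjusted p = 0.00376 in uvr8-2, 0.000693 in cry1cry2 and 0.000242 in Ler. ELF3 was called in cry1cry2 (adjusted p = 0.0139) and Ler (adjusted p = 0.0192), and PRR7 in uvr8-2 (adjusted p = 0.0146). Called genes made up 23.6% of the table in uvr8-2, 36% in cry1cry2 and 37.2% in Ler.

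Against Ler, PRR7 was the clock gene called higher in uvr8-2, in fits that carry no term for library number. Under UVA+B it had 297 and 328 CPM in uvr8-2 and 226 and 246 CPM in Ler, in replicates 2 and 1, and the libraries did not overlap. The log2 difference was 0.41 ± 0.093 (adjusted p = 0.0062), 1 call of 10 beside 15.2% of all genes, 6.79% higher. Under the other filters no clock gene was called in uvr8-2, beside 0% of all genes under blue0, 0.135% under UV0, 0.01% under UVA350 and 0.245% under UVA, and DESeq2 called PRR7 under UV0. Over the 5 filters the mean difference was 0.21 ± 0.042 (adjusted p = 0.00129), again the only call, beside 21.1% of all genes, 9.9% higher. PRR7 was higher in uvr8-2 in 9 of 10 pairs of libraries with the same filter and number. The UVA+B call was lost without uvr8-2 UVA+B replicate 1 (0.34, adjusted p = 0.103) or Ler UVA+B replicate 2 (0.35, adjusted p = 0.093).

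CCA1 was higher in uvr8-2 in 10 of 10 such pairs, as were 3.85% of all genes, by a median log2 difference of 0.52. Under UVA+B it was at 11.6 and 39.8 CPM in uvr8-2 and at 7.68 and 17.1 CPM in Ler, in replicates 2 and 1. The groups overlap, and the fitted mean difference of 0.62 ± 0.39 over the 5 filters was not called (adjusted p = 0.275) without a term for library number. With that term CCA1 was called higher over the 5 filters, by 0.59 (adjusted p = 0.000271 by edgeR's quasi-likelihood test). Under UVA+B alone, the same test with that term called CCA1 (0.97, adjusted p = 0.004) and PRR7 (0.41, adjusted p = 0.00192) higher in uvr8-2. TOC1 (-0.49, adjusted p = 0.00454) and ELF3 (-0.41, adjusted p = 0.0165) were called lower there.

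In cry1cry2 none of the 10 genes was called against Ler, under any filter or over their mean, by edgeR's quasi-likelihood test or by DESeq2, in fits that carry no term for library number, and 0 of 10 had an unadjusted p under 0.05 over the mean of the filters. Under single filters, 2 clock genes had an unadjusted p under 0.05 under blue0 and 0 under the other 4. Called genes made up 32.4% of the table over that mean and 1.51%, 7.28%, 9.6%, 3.38% and 0.861% under blue0, UV0, UVA350, UVA and UVA+B. The phloem companion cell gene SUC2 also differed, with 162 to 197 CPM in cry1cry2 and 107 to 142 CPM in Ler, and its part in these results was not tested. ELF4 and LUX were nevertheless lower in cry1cry2 in 10 of 10 pairs, as were 6.88% of all genes. The ELF4 values under UVA350 were 12.1 and 4.42 CPM in cry1cry2 and 36.7 and 14.6 CPM in Ler, in replicates 2 and 1. Its mean difference over the filters was -1.10 ± 0.52 (adjusted p = 0.119), with -1.06 in replicate 2 and -1.22 in replicate 1. LUX under UV0 had 34.5 and 17.5 CPM in cry1cry2 and 50.4 and 23.0 CPM in Ler, and its mean difference was -0.34 ± 0.34 (adjusted p = 0.474). PRR9 went the other way in 9 of 10 pairs, with 0.24 ± 0.39 (adjusted p = 0.676). With library number as a term, edgeR's quasi-likelihood test over the mean of the filters called PRR9 higher in cry1cry2. It called PRR5, TOC1, ELF4 (-1.15, adjusted p = 2.79e-06) and LUX (-0.36, adjusted p = 9.44e-07) lower.

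**Figure D5:**
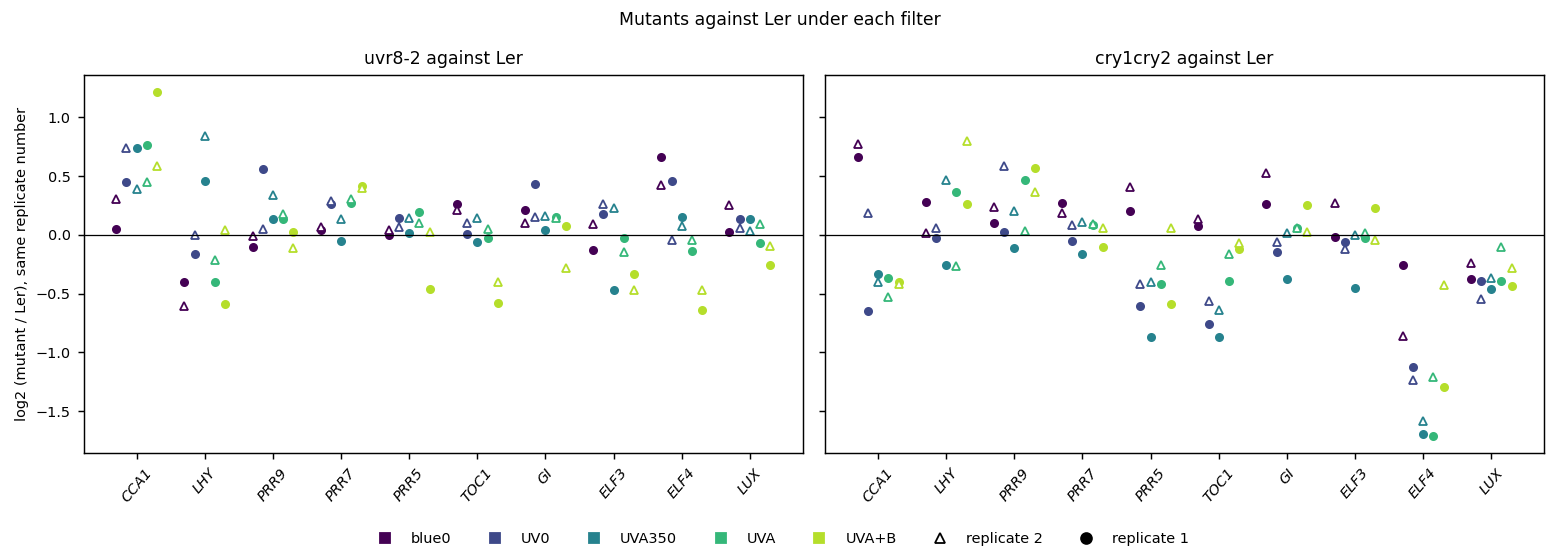
Log2 difference of each mutant minus Ler for each clock gene, in the 10 pairs of libraries that share filter and number. Each point is 1 pair, colours mark the filters, and open triangles and filled circles mark replicate 2 and replicate 1. In cry1cry2 all 10 points of ELF4 and of LUX lie below 0, and in uvr8-2 all 10 points of CCA1 lie above 0.

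The groups with the highest and the lowest mean were mostly those at the ends of the filter series, while the order between them was mixed. UVA+B gave the highest mean in 8 of the 10, in Ler for PRR5, TOC1, ELF4 and LUX, and in cry1cry2 for LHY, PRR9, GI and ELF3. CCA1 was highest in uvr8-2 under UVA, at a mean of 31.4 CPM, and PRR7 in uvr8-2 under UV0, at 339 CPM. The lowest mean was found under blue0 in 9 genes, in Ler for CCA1, PRR5, TOC1 and GI, in uvr8-2 for LHY, PRR9 and ELF3, and in cry1cry2 for ELF4 and LUX. PRR7 was lowest in cry1cry2 under UVA+B, at 232 CPM. Highest over lowest mean came to 7.74 for ELF4, 6.32 for LHY and 1.46 for PRR7. Of the 14 neighbouring pairs in each order, 4 did not overlap for PRR7 and for GI, and none for the other 8 genes, so that most neighbours cannot be ranked.

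Across the 15 group means, several clock genes followed each other closely. Pearson's r of the log2 means was 0.944 for ELF4 and LUX, 0.925 for TOC1 and GI, 0.92 for GI and ELF3, and 0.917 for PRR5 and TOC1. CCA1 and LHY, which are close relatives, had 0.292. PRR7 had 0.79 with CCA1 and at most 0.308 with the other 8, and CCA1 had at most 0.573 with those 8. These are descriptions over groups that share blocks and library numbers. Among 14522 other genes with a mean of at least 5 CPM, the most alike to ELF4 were COL9, a CONSTANS-like B-box protein, at 0.983 and COR27 at 0.971. COR27, a cold-regulated gene that also acts in the clock, was the most alike to LUX, at 0.944. PRR5 was closest to ECT2 at 0.973 and FKF1, a blue-light F-box protein of the ZTL family, at 0.958. TOC1 was closest to AT2G47890 at 0.978, GI to AT2G47850 at 0.976 and LNK1 at 0.966, and ELF3 to AT1G79510 at 0.987.

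Of 37 tested clock-associated genes, 11 rose and 6 fell over the full range for the mean of the 3 genotypes, beside 59.2% of all genes called, and their median log2 difference was 0.123. As a share of the list, these calls were no more frequent than among all genes. CHE, a TCP factor that represses CCA1, fell in each genotype. Its means were 28.8 ± 0.55 CPM under UVA+B and 50.6 ± 1.29 CPM under blue0 in uvr8-2, 21.4 ± 0.87 and 56.8 ± 1.85 CPM in cry1cry2, and 21.9 ± 7.46 and 44.9 ± 5.44 CPM in Ler (SD, n = 2 libraries each). CHE changed by -0.81 ± 0.14 (adjusted p = 0.000211), -1.41 ± 0.14 (adjusted p = 9.7e-08) and -1.04 ± 0.14 (adjusted p = 5.93e-06).

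ZTL, the F-box protein that GI stabilises and that targets TOC1 and PRR5 for breakdown, rose in each genotype. The log2 differences over the full range were 0.63 ± 0.12 in uvr8-2 (adjusted p = 0.000794), 0.64 ± 0.12 in cry1cry2 (adjusted p = 0.000242) and 0.78 ± 0.13 in Ler (adjusted p = 3.42e-05). LNK1, a coactivator of the clock, rose by 0.74 ± 0.24 in uvr8-2 (adjusted p = 0.0314). ELF4-L2, a relative of ELF4, fell by 0.57 on the log2 scale in cry1cry2 (SE 0.14, adjusted p = 0.00294) and by 0.78 in Ler (SE 0.15, adjusted p = 0.000216).

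Between genotypes, 7 associated genes were higher and 3 lower in cry1cry2 than in Ler over the mean of the filters, beside 32.4% of all genes called. ELF4-L3, another relative of ELF4, was at 2.24 ± 0.58 CPM in cry1cry2 and 4.56 ± 0.82 CPM in Ler (SD, n = 10 libraries each), a log2 difference of -1.02 ± 0.14 (adjusted p = 9.49e-06). CHE was higher in cry1cry2 by 0.35 ± 0.063 (adjusted p = 0.000224) and ZTL by 0.24 ± 0.055 (adjusted p = 0.0023). In uvr8-2, 2 of the 37 associated genes were called over that mean, both higher, beside 21.1% of all genes. They were TIC, a nuclear clock regulator, by 0.29 ± 0.078 (adjusted p = 0.0118) and ELF4-L2 by 0.22 ± 0.065 (adjusted p = 0.0196).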

How the data were processed

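RNA-seq of 30 rosette libraries was used, 2 in each of 15 groups of genotype and filter, grouped by their titles and labels. The values are estimated counts for 34212 loci, as the authors deposited them in a single table. FastQC, Trimmomatic 0.33 and kallisto were used, per the submitters' processing notes. What each tool did, the kallisto version, the transcriptome, the strand handling and the build are not stated there or in the labels. Libraries were made with a stranded mRNA kit, per the labels' protocols.

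The estimated counts were rounded, filtered by edgeR's filterByExpr by group and scaled by TMM, which left 19980 genes. edgeR 4.0.16 in R 4.3.3 fitted 1 coefficient per group over the 30 libraries (glmQLFit with robust estimation, 15 residual degrees of freedom). Each comparison was tested by the quasi-likelihood F test with Benjamini-Hochberg adjustment over all genes and called at an adjusted p under 0.05. The difference between library numbers came from the same fit with the number as an added term. Values within 1 library number are differences of log2 CPM, with 2 as the prior count. The script was tested on simulated counts. Alternatives were DESeq2 1.42.0, RLE size factors, no filter, the library number as a block, and leaving out libraries.

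The 10 clock genes, the clock-associated list, the markers and the tests were chosen with earlier results of these data known. Named associated genes are those called with the smallest adjusted p, up to 3 in a comparison, with ties in order of the unadjusted p. Genes most alike were ranked by Pearson's r of log2 means over the 15 groups. Of the loci in the table, 97.7% were found in the RefSeq TAIR10.1 annotation, and motifs were matched exactly, on both strands, in the 500 bases before each annotated gene start.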

Additional observations from a re-analysis of the deposited data

Results flagged for a closer look

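PRR7 differed between the mutants in its response to the full range of filters. UVA+B minus blue0 was 0.31 in uvr8-2 and -0.29 in cry1cry2, and the test of the difference itself gave 0.60 on the log2 scale (SE 0.13, adjusted p = 0.0103 by edgeR's quasi-likelihood test). It was 0.46 in replicate 2 and 0.74 in replicate 1. The comparison was chosen after the values of the single genotypes were seen, and its call was lost without uvr8-2 UVA+B replicate 1 (adjusted p = 0.0657), cry1cry2 UVA+B replicate 1 (adjusted p = 0.0568) or cry1cry2 blue0 replicate 1 (adjusted p = 0.0703). It was also lost without the 3 libraries with over 1% chloroplast counts (0.61, adjusted p = 0.0748). Groups of 2 libraries do not allow a check for single libraries that stand apart.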

How the results depend on the processing

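Calls among the 10 clock genes numbered 4 over the filter steps in single genotypes, 12 over the full range, 5 for total UV, 1 for mutants against Ler under single filters, 1 over the mean of the filters, 10 for the mean of the genotypes, 0 for differences between mutant and Ler in a step, 6 for any filter and 9 between library numbers. No single call was reversed under any alternative run. With DESeq2, mutants against Ler under single filters gave 2, the second being PRR7 in uvr8-2 under UV0. With no filter on low counts, the full range gave 6 and total UV 3. Without the 3 libraries with over 1% chloroplast counts, total UV gave 2, mutants against Ler over the mean of the filters 2, and any filter 3. RLE size factors and DESeq2 kept each of the 43 single calls. Leaving out 1 library at a time gave 3 to 5, 10 to 12, 2 to 5, 0 to 1, 1 to 1, 8 to 11, 0 to 0, 4 to 7 and 9 to 9, in the order above, and 62 of 1290 checks of a single call lost it.

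Library numbers did not meet the rule for pairing the samples: over 105 pairs of groups, the correlation of the differences between replicate 2 and replicate 1 across genes had a median of 0.178 and a minimum of 0.0261, and 92 were over 0.1. With the replicate block added, the calls were 33 for steps, 27 for the full range, 15 for total UV, 12 for mutants against Ler under single filters, 7 over the mean of the filters, 32 for the mean of the genotypes, 2 for differences in a step and 29 for any filter. The 7 were CCA1 and PRR7, higher in uvr8-2, and PRR9, higher, and PRR5, TOC1, ELF4 (adjusted p = 2.79e-06) and LUX (adjusted p = 9.44e-07), lower in cry1cry2. The 2 were TOC1, for the full range in uvr8-2 minus Ler and for the blue step in cry1cry2 minus Ler. The cause of the changes under these settings was not tested. In fits without a term for library number, a clock gene with a wide gap between the numbers could be called only at a large difference. The SE of 1.15 for ELF4 in Ler over the full range shows this. With the term, ELF4 was called there at 2.28 (adjusted p = 3.02e-06 by edgeR's quasi-likelihood test). The smallest library held 12109222 counts, and LHY stood at 0.509 CPM at its lowest, in uvr8-2 blue0 replicate 2.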
